A study of Homo sapiens with 15 samples.

Results

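The amino acid stress response was followed through 41 genes in NCI-H1975, a human lung adenocarcinoma cell line that carries a mutated EGFR. They were taken by symbol from a table of 61248 loci, with older symbols counted, and all 41 were found. They comprise 11 stress factors, 7 amino acid transporters, 10 enzymes of amino acid synthesis and 13 cytosolic tRNA synthetases. RNA-seq libraries, 3 per group, came from cells given almonertinib (an inhibitor of the EGFR kinase), cells given EGF (the ligand of EGFR), cells with an siRNA against EGFR (siEGFR), cells with a negative-control siRNA (siNC) and control cells. All 5 groups are the same cell line, and the labels state no dose, duration, culture condition or siRNA sequence. They do not say whether the 3 libraries of a group are separate cultures, so p-values reflect the spread among libraries alone, and that spread may be technical.

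When cells lack amino acids or misfold proteins, kinases phosphorylate the initiation factor eIF2. Protein synthesis as a whole then drops while the transcription factor ATF4 is translated more, and ATF4 with its partners of the C/EBP family switches on genes for amino acid uptake, amino acid synthesis and the charging of tRNA. DDIT3 (CHOP), TRIB3 and CHAC1 belong to the same programme, and growth factor signalling through mTORC1 can also raise ATF4.

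Levels are FPKM, fragments per kilobase of gene scaled to library depth, with the mean ± SD of 3 libraries. Changes are log2 differences ± SE on log2(FPKM + 1), tested two-sided with limma and adjusted by Benjamini-Hochberg over the 14999 loci that reached 1 FPKM in at least 3 libraries. Rose and fell mean an adjusted p under 0.05. Of the 41 genes, 39 were tested. ASNS, which makes asparagine, averaged 0.500 FPKM with almonertinib, 0.355 with EGF, 0.391 with siEGFR, 0.508 with siNC and 0.476 in control cells. VLDLR, a lipoprotein receptor, averaged 0.210 with almonertinib, 0.340 with EGF, 0.398 with siEGFR, 0.298 with siNC and 0.191 in control cells. Both stayed below 1 FPKM in every library. CHAC1 passed the minimum through EGF, siEGFR and siNC, since every almonertinib and control library lay below 1 FPKM. In these bulk libraries, fewer cells of a kind and less RNA per cell cannot be told apart.

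EGFR, the target of the siRNA, was at 29.9, 28.6 and 28.9 FPKM in the siEGFR libraries, against 49.4, 49.4 and 49.8 FPKM in the siNC libraries. It was at 19.2, 15.4 and 15.5 FPKM with almonertinib and at 30.2, 22.1 and 23.9 FPKM with EGF, against 28.0, 22.3 and 22.8 FPKM in control libraries. All siEGFR libraries were below all siNC libraries, and the libraries of both siRNA groups lay above every control library. Read totals ran from 18009903 to 34908302 per library, and 1 read per kb of gene was worth 0.0286 to 0.0555 FPKM. Replicates were tighter in the siRNA groups, with a median SD (log2) of 0.0510 in siEGFR and 0.0598 in siNC, than with almonertinib at 0.138, with EGF at 0.106 and in control cells at 0.146. Control 1, almonertinib 3 and EGF 2 stood apart from the other libraries of their groups. Without EGF 2, 25 members rose and 3 fell with EGF, the same counts as with all libraries. The members differed, since SHMT2 and SLC3A2 no longer passed while EPRS1 and SLC7A11 did. The epithelial keratin KRT8 averaged 197 to 278 FPKM across the groups, while the surfactant gene SFTPB stayed at or below 3.40 and the lung protease NAPSA at or below 1.63. Of 5 leukocyte markers only CD14 reached 1 FPKM, and it averaged 3.46 with siEGFR, 6.99 with siNC and 35.4 in control cells, while PTPRC, which marks all leukocytes, averaged at most 0.0542. The 6 fibroblast and endothelial markers, mostly COL1A2, summed to 359 to 384 FPKM with almonertinib, 194.5 to 216 with EGF, 194 to 196 with siEGFR, 139 to 146 with siNC and 338 to 354 in control libraries, while DCN averaged at most 0.0013. The part of these markers in the results was not tested.

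Several of these genes carry a copy of the letters that ATF4 and C/EBP proteins are known to bind together as an amino acid response element. The letters TGATGNAA, or TTNCATCA when read on the other strand, were searched in RefSeq promoters of build GRCh38.p14, from 250 bases before to 50 bases after the gene start. They were present in 1270 of 35116 promoters (3.62%) and in 9 of the 33 members with a promoter in that table (27.3%). Among synthetases 6 of 10 held them, while LARS1, VARS1 and YARS1 had no promoter in that table. All 9 matches are shown because they are the sequence feature shared by most of the 10 synthetases searched. They read 5′ to 3′ on the strand of the gene, with the matched letters in capitals. Distances are counted to the first matched letter, so the matches of CARS1 and MARS1 run across the gene start.
AARS1, chr16:70289676-70289703, minus strand, 187 bases before the start: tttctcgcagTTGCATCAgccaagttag
CARS1, chr11:3057408-3057435, minus strand, 2 bases before: ggggcggcggTTGCATCAgattctagga
IARS1, chr9:92293693-92293720, minus strand, 13 bases before: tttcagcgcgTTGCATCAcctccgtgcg
MARS1, chr12:57488054-57488081, plus strand, 4 bases before: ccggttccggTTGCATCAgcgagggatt
NARS1, chr18:57621805-57621832, minus strand, 14 bases after: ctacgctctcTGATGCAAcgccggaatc
TARS1, chr5:33440957-33440984, plus strand, 2 bases after: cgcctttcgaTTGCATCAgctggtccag
CHAC1, chr15:40953252-40953279, plus strand, 209 bases before: tcccctgccgTTGCATCActcctgccag
ASNS, chr7:97872459-97872486, minus strand, 68 bases before: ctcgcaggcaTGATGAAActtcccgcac
SLC3A2, chr11:62881726-62881748, plus strand, 37 bases after: gcaggactccTTACATCAgctcc

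In the 6 synthetases and in CHAC1 the matched letters were the same 8 bases on one strand or the other, whereas ASNS and SLC3A2 each differed from them. Within the synthetases, the 6 with the letters had a median log2 change of 0.67 with EGF against control, and the 4 without them (EPRS1, GARS1, SARS1 and WARS1) had 0.57. With almonertinib against control the medians were -0.29 and -0.26. A match in a window is a description of letters, not of binding.

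With almonertinib 25 of the 39 tested genes did not pass, and the direction of the other calls differed between roles. Of the 39 tested genes 6 rose, among loci of which 5.37% rose, and 8 fell, among loci of which 8.71% fell. Stress factors gave 3 that rose of 10, transporters gave 2 of 7, and in neither role did a gene fall, also at an unadjusted p under 0.05 and with limma-voom. Synthesis enzymes gave 1 that rose and 2 that fell of 9. Among the 13 synthetases 6 fell and 0 rose in limma, while 1 (AARS1) was higher at an unadjusted p under 0.05 and 0 rose with limma-voom on recovered reads. Over single left-out libraries, 2 to 9 synthetases fell. The median log2 change was 0.13 for stress factors, 0.11 for transporters, 0.01 for synthesis enzymes and -0.32 for synthetases, beside -0.06 over all tested loci.

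With EGF most of the set was higher. Of the 39 genes, 25 rose, among loci of which 19.3% rose, and 3 fell, among loci of which 23.2% fell. Synthetases gave 12 that rose of 13, synthesis enzymes 5 of 9, and transporters 4 of 7 with 1 that fell. Stress factors were mixed, with 4 that rose and 2 that fell of 10. Medians were 0.66 for synthetases, 0.34 for synthesis enzymes, 0.27 for transporters and 0.18 for stress factors, beside -0.04 over all tested loci. These rises were not particular to EGF. Against the same control libraries, siNC was higher in 21 of the 25 genes, lower in 3, and did not pass in 1. The synthetase median with siNC was 0.65, beside 0.03 over all tested loci. How many of all loci were higher with both was not counted.

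With siEGFR against siNC the largest changes were those of GDF15, PSAT1 and SLC7A5, at -0.84, -0.47 and 0.37. Of the 39 genes 5 rose, among loci of which 12.5% rose, and 6 fell, among loci of which 11.1% fell, so the members' shares were near those of all loci. Of the 13 synthetases only NARS1 fell, and the 13 changes lay between -0.11 and 0.05. The NARS1 call was lost in 8 of 26 other settings, among them without siEGFR 1, siEGFR 3, siNC 1 or siNC 3, with adjusted p up to 0.316. Stress factors had 1 that rose and 3 that fell, transporters 2 and 1, and synthesis enzymes 2 and 1.

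**Figure D1:**
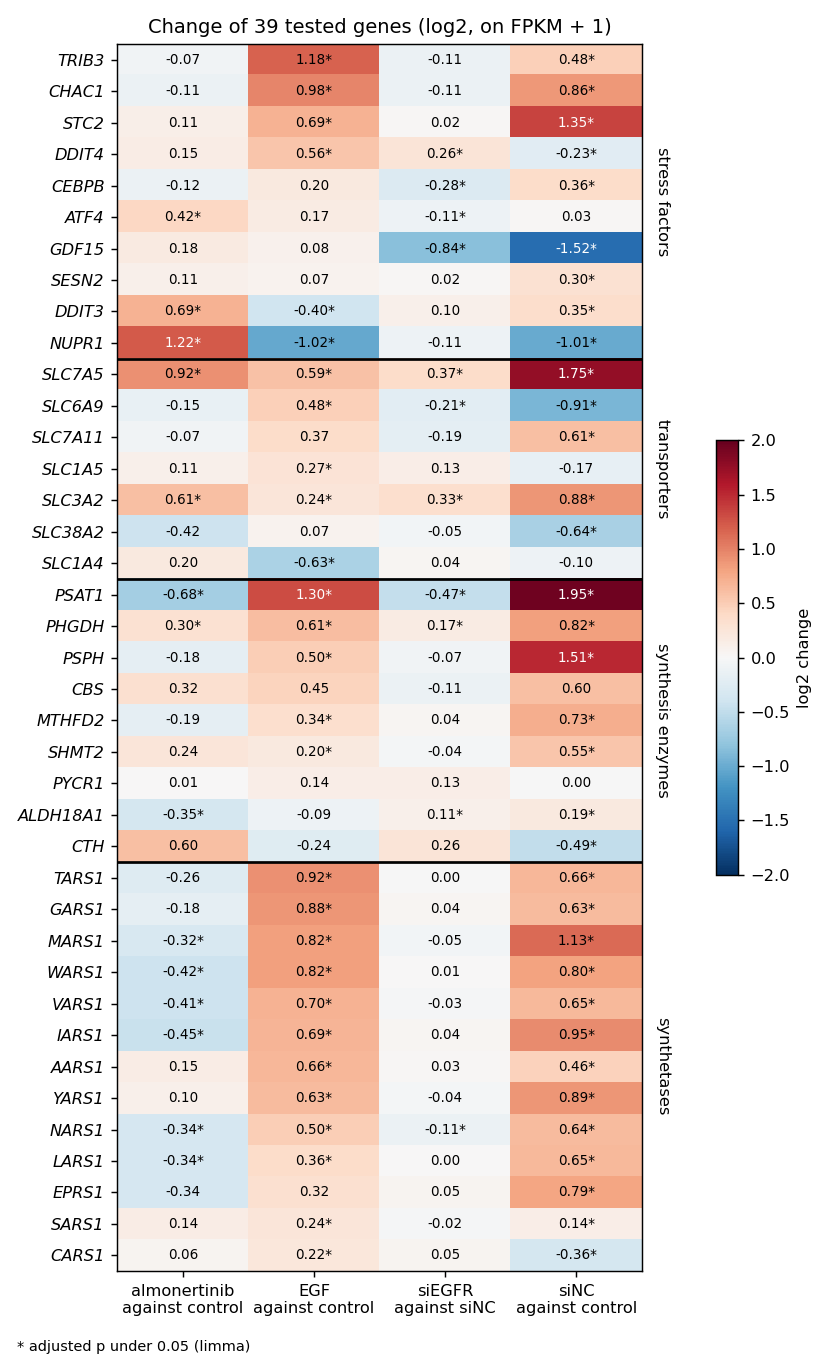
Log2 changes (on FPKM + 1) of the 39 tested genes, in rows grouped by role, for almonertinib, EGF and siNC each against control and for siEGFR against siNC, in columns. Colour and number give the change and an asterisk an adjusted p under 0.05. The synthetases are mostly below 0 with almonertinib, above 0 with EGF and near 0 with siEGFR.

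ATF4, the transcription factor at the centre of the response, was at 146, 144 and 159 FPKM with almonertinib, against 107, 112 and 115 FPKM in control libraries. All 3 almonertinib libraries were above all 3 control libraries, and ATF4 transcript rose by 0.42 ± 0.08 (limma, adjusted p = 0.00389). With EGF it was at 119, 128 and 128 FPKM, above every control library, but the difference of 0.17 ± 0.07 did not pass (limma, adjusted p = 0.0700). With siEGFR it was at 110, 104 and 102 FPKM, against 110, 117 and 114 FPKM with siNC. This was a fall of 0.11 ± 0.04 (limma, adjusted p = 0.0463), which missed the threshold in 16 of 26 other settings, among them leaving out siEGFR 2, siEGFR 3 or any 1 siNC library. Transcript levels do not report the translation of ATF4.

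DDIT3 (CHOP), a transcription factor of prolonged stress, was at 10.7, 10.9 and 14.6 FPKM with almonertinib and at 5.08, 5.01 and 5.10 FPKM with EGF, against 6.85, 7.04 and 7.18 FPKM in control libraries. The 3 groups did not overlap: DDIT3 rose by 0.69 ± 0.10 with almonertinib (limma, adjusted p = 0.000844) and fell by 0.40 ± 0.09 with EGF (adjusted p = 0.00263). NUPR1, a small stress-induced chromatin protein, had the largest rise of the set with almonertinib. It was at 14.95, 18.1 and 22.1 FPKM with almonertinib and at 2.82, 3.01 and 3.35 FPKM with EGF, against 7.80, 6.63 and 7.30 FPKM in control libraries. The mean was 2.54 times that of control cells with almonertinib (1.22 ± 0.13, adjusted p = 0.000129) and 0.423 times with EGF (-1.02 ± 0.12, adjusted p = 1.79e-05). With siEGFR NUPR1 averaged 2.80 ± 0.166 FPKM, against 3.10 ± 0.233 FPKM with siNC, and those libraries overlapped. DDIT3 shares 355 exon bases with MARS1 on the opposite strand in GENCODE v29. Whether counting used the strand is not given in the sources used here, so reads in that stretch cannot be assigned with certainty.

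TRIB3, a pseudokinase that restrains ATF4 and AKT, rose with EGF. It was at 39.7, 43.6 and 41.1 FPKM with EGF, against 15.6, 19.1 and 18.7 FPKM in control libraries, a rise of 1.18 ± 0.08 (limma, adjusted p = 8.61e-08). With almonertinib it was at 16.6, 18.05 and 16.0 FPKM, within the range of the control libraries. CHAC1, which degrades glutathione, was at 2.68, 3.26 and 2.55 FPKM with EGF, against 0.901, 0.974 and 0.948 FPKM in control libraries (0.98 ± 0.13, adjusted p = 5.45e-05). The ratio of means was 3.005 for CHAC1 and 2.33 for TRIB3, since the added 1 shrinks the log2 change of a gene this low. With almonertinib it was at 0.678, 0.944 and 0.774 FPKM, which overlapped the control range. STC2, a secreted glycoprotein, and DDIT4, an mTORC1 inhibitor, also rose with EGF, by 0.69 ± 0.05 (adjusted p = 5.68e-07) and 0.56 ± 0.10 (adjusted p = 0.000659). DDIT4 was also the stress factor that rose with siEGFR. It was at 59.1, 54.7 and 55.3 FPKM, against 46.0, 48.8 and 45.6 FPKM with siNC (0.26 ± 0.05, adjusted p = 0.00284). That siEGFR call was lost with no filter and with no weights (adjusted p up to 0.151). In all, ATF4, DDIT3 and NUPR1 rose with almonertinib, while TRIB3, CHAC1, STC2 and DDIT4 rose with EGF, and 0 of the 10 tested stress factors rose with both. That 0 rests on ATF4 with EGF, which passed in 4 of 26 other settings, among them without EGF 1 or siEGFR 1 (adjusted p down to 0.024). How many of all loci rose with both was not counted.

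GDF15, a secreted stress cytokine, was the stress factor that moved most with the knockdown. It was at 3.42, 3.24 and 3.40 FPKM with siEGFR, against 7.002, 6.83 and 6.51 FPKM with siNC, a fall of 0.84 ± 0.05 (limma, adjusted p = 7.38e-08). All siEGFR libraries lay below all siNC libraries. With almonertinib it was at 24.2, 27.8 and 21.4 FPKM, against 19.7, 21.3 and 23.0 FPKM in control libraries, and the groups overlapped. CEBPB, a C/EBP partner of ATF4, averaged 24.3 ± 3.78 FPKM with siEGFR, against 29.5 ± 1.02 FPKM with siNC, and siEGFR 1 at 28.6 FPKM lay close to the siNC libraries. It fell by 0.28 ± 0.08 (adjusted p = 0.0281), which missed the threshold in 9 of 26 other settings, among them without siEGFR 2, siEGFR 3 or any 1 siNC library. SESN2, a leucine sensor of the mTORC1 pathway, averaged 3.66 ± 0.131 FPKM with almonertinib, 3.55 ± 0.248 FPKM with EGF and 3.34 ± 0.521 FPKM in control cells, and passed in neither comparison.

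**Figure D2:**
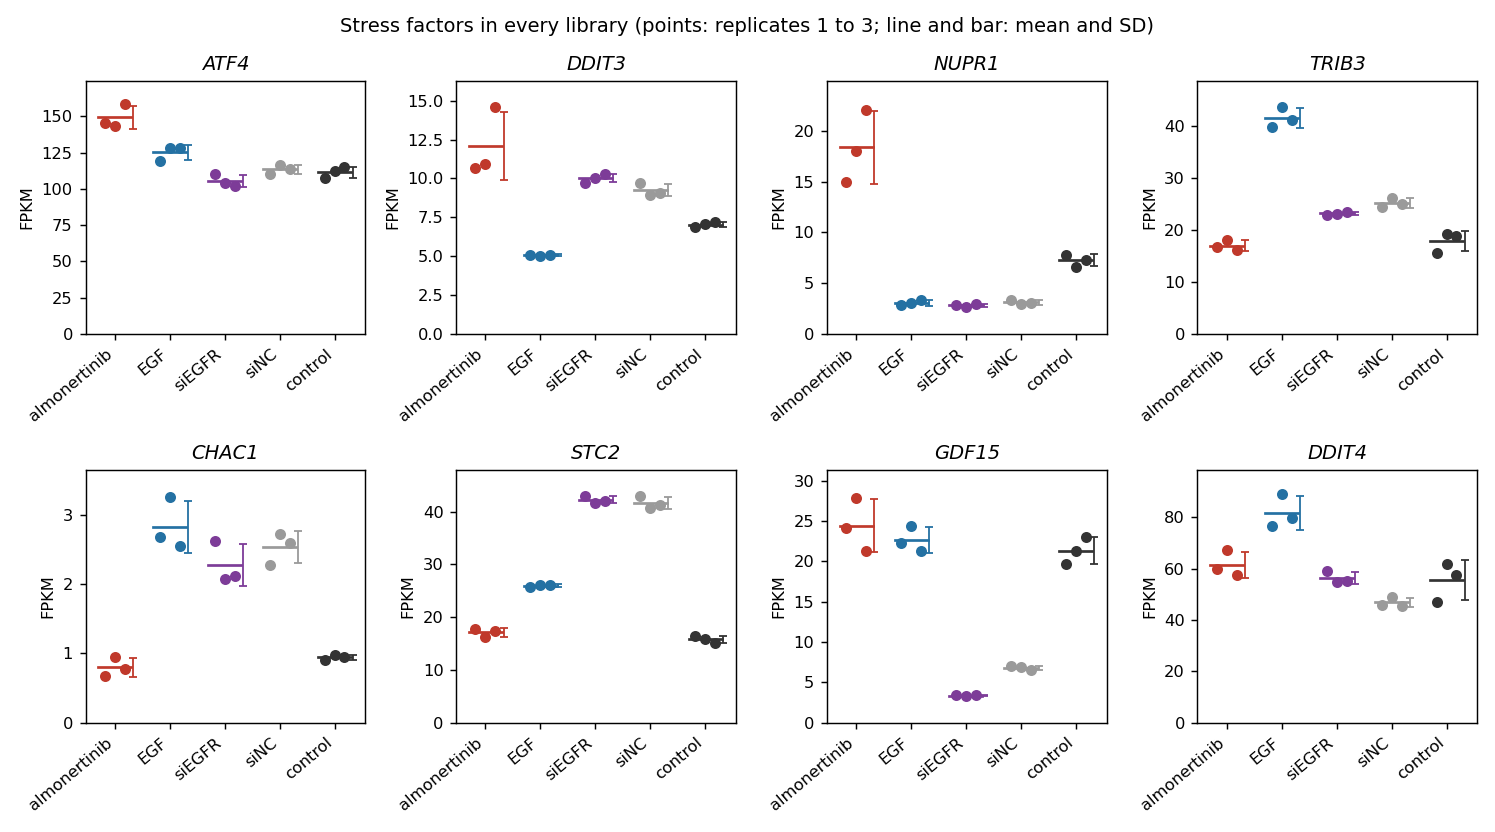
FPKM of 8 stress factors (y axis, from 0) in each library, as points for replicates 1 to 3, with a line at the mean and a bar for the SD, for almonertinib, EGF, siEGFR, siNC and control from left to right. NUPR1 and DDIT3 are highest with almonertinib, TRIB3 is highest with EGF, and GDF15 is low in both siRNA groups.

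Both chains of the leucine transporter CD98 rose in every treatment compared. SLC7A5 (LAT1), the chain that carries leucine and other large neutral amino acids, was at 54.9, 60.1 and 52.2 FPKM with almonertinib and at 41.035, 48.6 and 42.7 FPKM with EGF, against 25.6, 31.6 and 29.8 FPKM in control libraries. With siEGFR it was at 135, 126 and 127 FPKM, against 99.0, 102 and 98.4 FPKM with siNC. In each pair the groups did not overlap. The changes were 0.92 ± 0.10 with almonertinib (limma, adjusted p = 0.000116), 0.59 ± 0.09 with EGF (adjusted p = 0.000155) and 0.37 ± 0.05 with siEGFR (adjusted p = 9.3e-05).

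SLC3A2, the heavy chain that brings SLC7A5 to the membrane, was at 26.6, 29.9 and 28.9 FPKM with almonertinib and at 20.2, 23.8 and 21.6 FPKM with EGF, against 16.8, 19.2 and 19.0 FPKM in control libraries. It was at 43.4, 43.9 and 43.6 FPKM with siEGFR, against 35.3, 35.3 and 32.9 FPKM with siNC. It rose by 0.61 ± 0.09 with almonertinib (limma, adjusted p = 0.000745), by 0.24 ± 0.08 with EGF (adjusted p = 0.0221) and by 0.33 ± 0.04 with siEGFR (adjusted p = 6.19e-05). The EGF call was lost without EGF 2, EGF 3 or control 3, and without control 1 and almonertinib 3 together, with adjusted p up to 0.0964. The almonertinib and EGF comparisons share their control libraries.

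None of the other 5 transporters passed in all 3 of these comparisons. SLC1A4, an exchanger of alanine and serine, was at 2.63, 2.52 and 2.66 FPKM with EGF, against 4.58, 4.45 and 4.68 FPKM in control libraries, and fell by 0.63 ± 0.06 (limma, adjusted p = 3.07e-06). With almonertinib it was at 5.51, 5.31 and 5.37 FPKM, above every control library, a difference of 0.20 ± 0.07 that did not pass (adjusted p = 0.0668). That difference passed in 5 of 26 other settings, among them without almonertinib 3 (adjusted p down to 0.00715). SLC6A9, a glycine transporter, averaged 17.5 ± 1.09 FPKM with EGF, against 12.3 ± 1.05 FPKM in control cells, and rose by 0.48 ± 0.11 (adjusted p = 0.00281). With siEGFR it averaged 5.08 ± 0.306 FPKM, against 6.03 ± 0.381 FPKM with siNC, and fell by 0.21 ± 0.06 (adjusted p = 0.0151), a call lost without siEGFR 3 or siNC 2. SLC1A5, a glutamine transporter, rose by 0.27 ± 0.09 with EGF (adjusted p = 0.0209), a call lost without EGF 3 or control 3 (adjusted p up to 0.0758). With siEGFR it was at 45.2, 47.2 and 45.1 FPKM, against 40.7, 43.1 and 41.7 FPKM with siNC. These did not overlap, and the difference of 0.13 ± 0.04 (adjusted p = 0.0542) passed in 10 of 26 other settings. SLC38A2, another glutamine carrier, ran from 65.9 to 123 FPKM among the control libraries alone and passed with neither almonertinib nor EGF. SLC7A11, the cystine transporter, averaged 1.38 ± 0.302 FPKM with almonertinib, 2.25 ± 0.530 FPKM with EGF and 1.53 ± 0.591 FPKM in control cells, with overlap in both comparisons.

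PSAT1, the transaminase of the serine pathway, moved most of the synthesis enzymes in all 3 treatment comparisons. It was at 8.44, 8.47 and 9.81 FPKM with almonertinib and at 39.9, 34.96 and 39.1 FPKM with EGF, against 17.0, 13.6 and 14.0 FPKM in control libraries. It was at 40.8, 43.5 and 45.3 FPKM with siEGFR, against 60.2, 58.7 and 61.6 FPKM with siNC. No library of one group overlapped the other group in any of these pairs. PSAT1 fell by 0.68 ± 0.11 with almonertinib (limma, adjusted p = 0.0013), rose by 1.30 ± 0.09 with EGF (adjusted p = 2.45e-07) and fell by 0.47 ± 0.05 with siEGFR (adjusted p = 1.89e-05).

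PHGDH, which starts the same pathway, rose with EGF as PSAT1 did, but did not fall with almonertinib or siEGFR. It was at 4.05, 4.15 and 4.26 FPKM with almonertinib and at 4.89, 5.75 and 5.59 FPKM with EGF, against 2.86, 3.51 and 3.21 FPKM in control libraries. It averaged 7.31 ± 0.00979 FPKM with siEGFR, against 6.41 ± 0.162 FPKM with siNC. The changes were 0.30 ± 0.08 with almonertinib (limma, adjusted p = 0.0275), 0.61 ± 0.07 with EGF (adjusted p = 1.77e-05) and 0.17 ± 0.04 with siEGFR (adjusted p = 0.00608). The almonertinib call was lost without almonertinib 1, almonertinib 2 or control 3, with adjusted p up to 0.139. The siEGFR call was lost with no filter and with no weights, with adjusted p up to 0.197. PSPH, which completes serine synthesis, averaged 12.9 ± 1.13 FPKM with almonertinib and 21.2 ± 0.704 FPKM with EGF, against 14.7 ± 1.35 FPKM in control cells. It rose with EGF by 0.50 ± 0.08 (adjusted p = 0.000261). Its expressed pseudogene PSPHP1 averaged 14.4 FPKM over the 15 libraries, so the split of reads between these copies is uncertain.

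The mitochondrial folate enzyme MTHFD2 averaged 8.37 ± 0.283 FPKM with EGF, against 6.397 ± 0.502 FPKM in control cells, and rose by 0.34 ± 0.07 (limma, adjusted p = 0.00226). The call was lost without control 3. Serine hydroxymethyltransferase SHMT2 rose with EGF by 0.20 ± 0.07 (adjusted p = 0.0419), a call lost in 16 of 26 other settings, 10 of which left out EGF 2, EGF 3, control 1, control 3 or any 1 siRNA library. ALDH18A1, the entry enzyme of proline synthesis, averaged 26.6 ± 0.708 FPKM with almonertinib, against 34.1 ± 0.514 FPKM in control cells, and fell by 0.35 ± 0.05 (adjusted p = 0.00129). With siEGFR it averaged 42.3 ± 0.149 FPKM, against 39.2 ± 0.700 FPKM with siNC, and rose by 0.11 ± 0.03 (adjusted p = 0.00707). That call was lost with no filter, with no weights and with the replicate number as a block (adjusted p up to 0.192). PYCR1, which completes proline, averaged 30.5 ± 3.78 FPKM with almonertinib, 33.3 ± 3.16 FPKM with EGF and 30.2 ± 2.58 FPKM in control cells, and passed in neither comparison. CTH, the cysteine-forming enzyme, was at 9.09, 6.996 and 10.4 FPKM with almonertinib, against 6.77, 4.14 and 5.64 FPKM in control libraries. These did not overlap, but the difference of 0.60 ± 0.23 did not pass (adjusted p = 0.103). It passed in 5 of 26 other settings, among them without control 1 (adjusted p down to 0.0103). CBS, which acts just before CTH, ran from 1.73 to 5.35 FPKM over the 15 libraries and did not pass with almonertinib, EGF or siEGFR.

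**Figure D3:**
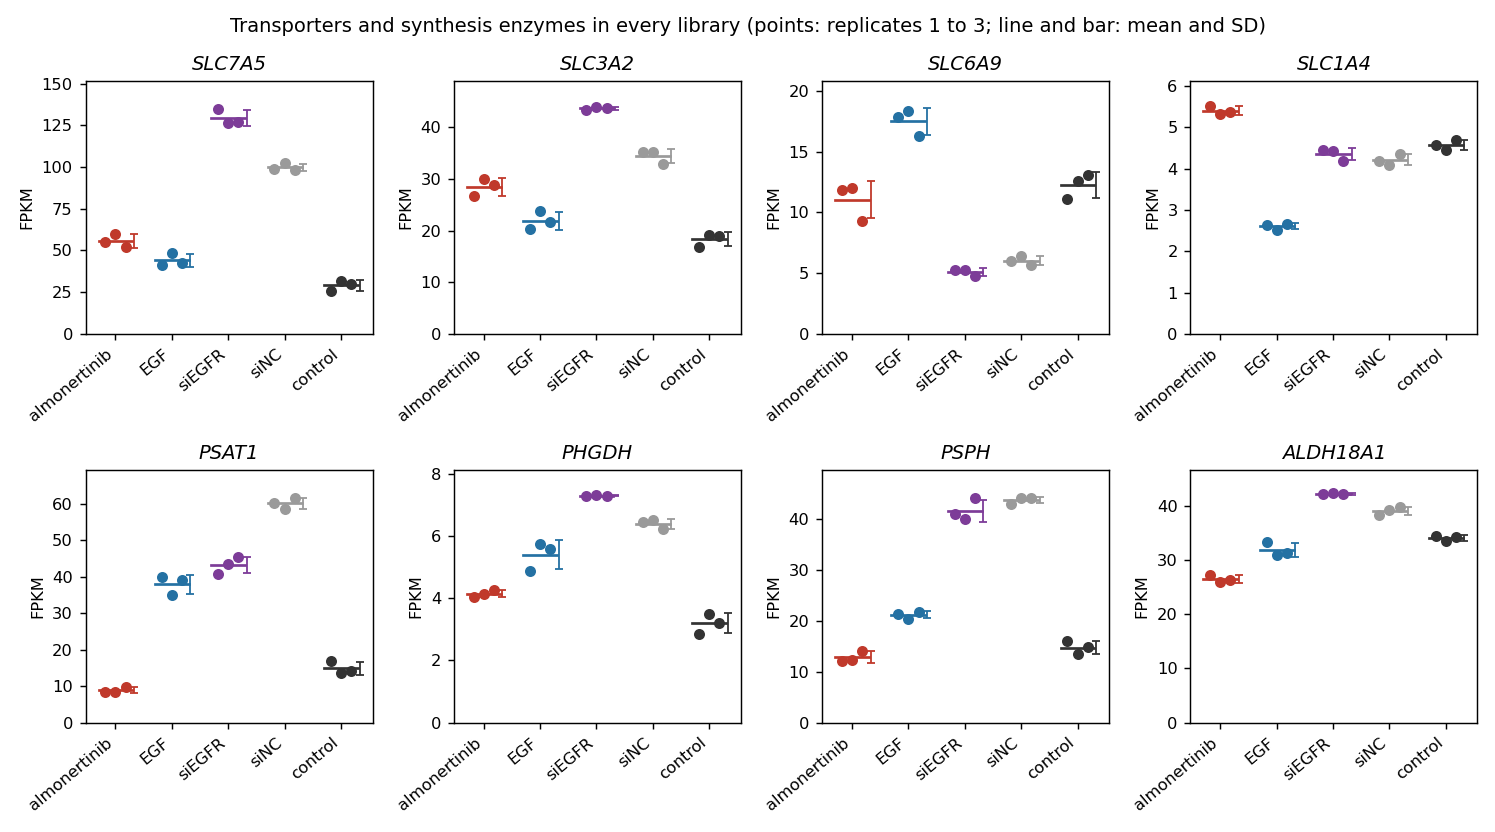
FPKM of 4 transporters and 4 synthesis enzymes (y axis, from 0) in each library, as points for replicates 1 to 3, with a line at the mean and a bar for the SD, for almonertinib, EGF, siEGFR, siNC and control from left to right. SLC7A5 and SLC3A2 lie above control with almonertinib and with EGF, whereas PSAT1 lies below control with almonertinib and above it with EGF.

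The tRNA synthetases load each tRNA with its amino acid. WARS1, for tryptophan, was at 21.5, 20.3 and 20.6 FPKM with almonertinib and at 50.8, 50.7 and 49.9 FPKM with EGF, against 28.3, 28.4 and 27.9 FPKM in control libraries. These groups were far apart relative to their replicates: WARS1 fell by 0.42 ± 0.06 with almonertinib (limma, adjusted p = 0.000956) and rose by 0.82 ± 0.06 with EGF (adjusted p = 1.43e-07). IARS1, for isoleucine, was at 7.12, 6.36 and 7.15 FPKM with almonertinib and at 16.6, 15.8 and 16.3 FPKM with EGF, against 10.8, 9.07 and 9.32 FPKM in control libraries. It fell by 0.45 ± 0.07 with almonertinib (adjusted p = 0.00145) and rose by 0.69 ± 0.06 with EGF (adjusted p = 1.99e-06). WARS1 shares 287 exon bases with WDR25 on the opposite strand, and WDR25 averaged 3.602 FPKM.

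VARS1, LARS1, NARS1 and MARS1, for valine, leucine, asparagine and methionine, also fell with almonertinib, by 0.41, 0.34, 0.34 and 0.32, and all 4 rose with EGF. These 4 almonertinib calls depended on single libraries. The number of synthetases that fell was 6 in the full fit, 2 without almonertinib 1, 3 without almonertinib 2, 2 without control 3 and 9 without almonertinib 3. It was also 9 without almonertinib 3 and control 1 together, when EPRS1, GARS1 and TARS1 joined, and 2 in a fit of these 6 libraries alone. Scaling by median ratios left 3. WARS1 and IARS1 fell in each of these settings.

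With EGF the largest rises among synthetases were those of TARS1, for threonine, and GARS1, for glycine. TARS1 was at 98.1, 84.4 and 97.7 FPKM with EGF, against 57.6, 42.2 and 47.8 FPKM in control libraries (0.92 ± 0.13, limma, adjusted p = 6.31e-05). With almonertinib it was at 38.1, 34.96 and 49.8 FPKM, where almonertinib 3 alone reached into the control range. GARS1 averaged 16.0 ± 0.828 FPKM with EGF, against 8.30 ± 0.965 FPKM in control cells (0.88 ± 0.10, adjusted p = 1.41e-05). AARS1, YARS1, SARS1 and CARS1, for alanine, tyrosine, serine and cysteine, rose with EGF by 0.66, 0.63, 0.24 and 0.22, while their almonertinib changes of 0.15, 0.10, 0.14 and 0.06 did not pass. The CARS1 call with EGF was lost without EGF 3 or control 3 (limma, adjusted p up to 0.0927). EPRS1, for glutamate and proline, averaged 24.7 ± 4.37 FPKM with almonertinib and 39.3 ± 4.87 FPKM with EGF, against 31.4 ± 5.63 FPKM in control cells. It passed in neither comparison, and control 1 at 37.5 FPKM was the highest of the control libraries. With EGF it passed in 6 of 26 other settings, among them without EGF 2 or control 1 (adjusted p down to 0.00202). Over single left-out libraries, 10 to 13 synthetases rose with EGF.

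The genes that fell with almonertinib and rose with EGF numbered 7, namely IARS1, LARS1, MARS1, NARS1, VARS1, WARS1 and PSAT1. DDIT3 and NUPR1 rose with almonertinib and fell with EGF, and SLC7A5, SLC3A2 and PHGDH rose with both. These comparisons share the control libraries, and the share of all loci with each pair of calls was not counted. The almonertinib calls of LARS1, MARS1, NARS1, VARS1 and PHGDH were each lost without single libraries, as were the EGF calls of LARS1 and SLC3A2. Set directly against each other, EGF libraries were higher than almonertinib libraries in 23 of 39 genes, among loci of which 30% were higher, and lower in 7, among loci of which 27.3% were lower. Of the 13 synthetases 12 were higher with EGF, from 0.16 ± 0.06 for CARS1 (limma, adjusted p = 0.0348) to 1.24 ± 0.06 for WARS1 (adjusted p = 9.92e-10), and SARS1 was at 0.10 ± 0.06 (adjusted p = 0.161). The CARS1 call was lost in 6 of 26 other settings, among them without almonertinib 1, almonertinib 2 or EGF 3 (adjusted p up to 0.186). Over single left-out libraries, 11 to 13 synthetases were higher with EGF than with almonertinib. The 7 that were lower with EGF were ATF4, DDIT3, NUPR1, SLC7A5, SLC3A2, SLC1A4 and CTH, with NUPR1 at -2.24 ± 0.12 (adjusted p = 4.84e-09).

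**Figure D4:**
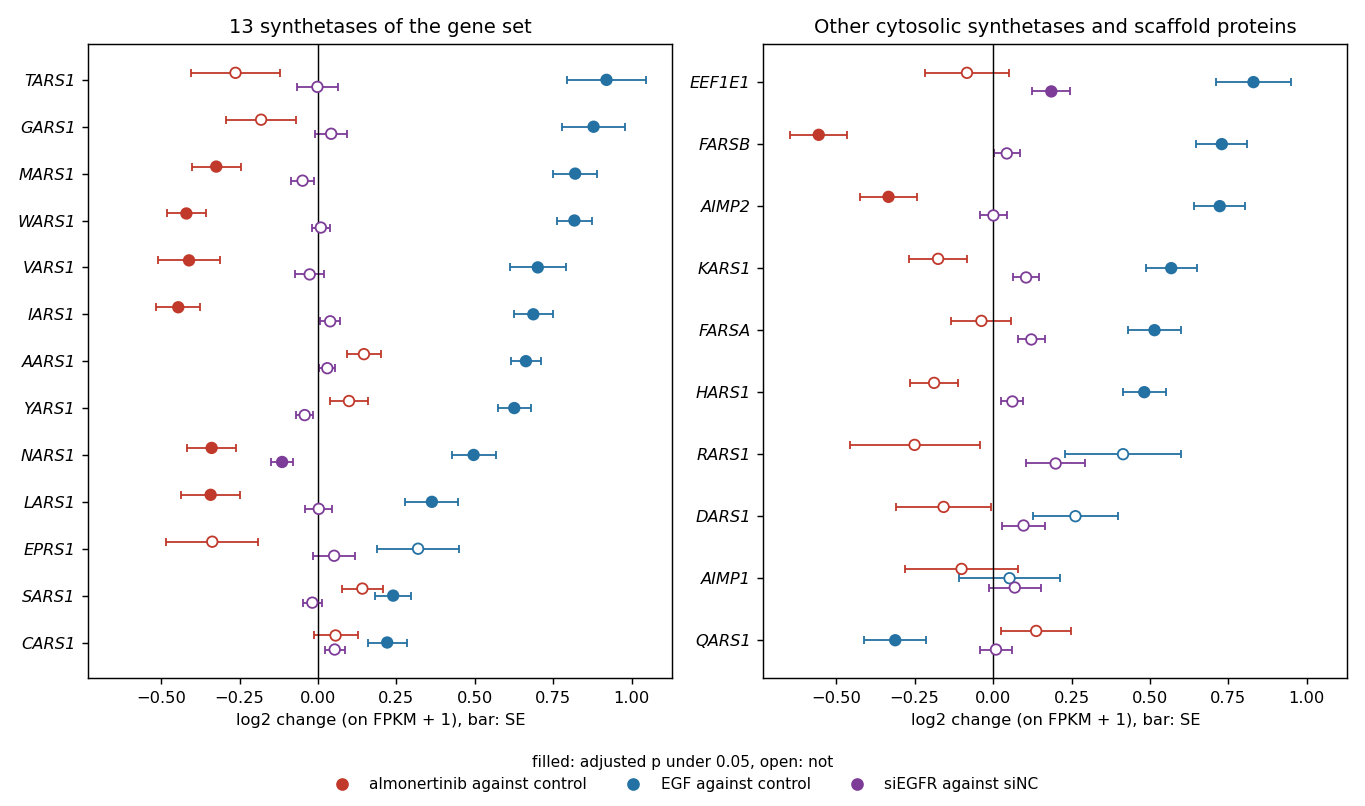
Log2 change (on FPKM + 1, x axis) with SE bars of the 13 synthetases of the set (left) and of 10 other cytosolic synthetases and scaffold proteins (right), for almonertinib and EGF against control and siEGFR against siNC. Filled points have an adjusted p under 0.05. WARS1 is at -0.42 with almonertinib, 0.82 with EGF and 0.01 with siEGFR.

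Drug and knockdown were compared through the difference of their effects, each taken against its own control. The almonertinib effect was the higher one in 5 of 39 genes, among loci of which 5.37% were higher, and the lower one in 5, among loci of which 7.75% were lower. It was higher for NUPR1 by 1.33 ± 0.15 (limma, adjusted p = 0.000155), GDF15 by 1.02 ± 0.11 (adjusted p = 0.000124), DDIT3 by 0.59 ± 0.11 (adjusted p = 0.0044), SLC7A5 by 0.55 ± 0.11 (adjusted p = 0.00596) and ATF4 by 0.52 ± 0.09 (adjusted p = 0.00176). It was lower for IARS1 by -0.48 ± 0.08 (adjusted p = 0.00164), ALDH18A1 by -0.46 ± 0.06 (adjusted p = 0.000436), WARS1 by -0.43 ± 0.07 (adjusted p = 0.00169), VARS1 by -0.38 ± 0.11 (adjusted p = 0.0374) and LARS1 by -0.34 ± 0.10 (adjusted p = 0.0463). The LARS1 difference was lost in 16 of 26 other settings and that of VARS1 in 11, both among them without almonertinib 1, control 3, siEGFR 1, siEGFR 3, siNC 1 or siNC 3 (adjusted p up to 0.177 and 0.230). Over single left-out libraries 2 to 8 synthetases were lower. For PSAT1, which fell in both, the difference of -0.21 ± 0.12 did not pass (adjusted p = 0.249). The knockdown left EGFR transcript at 29.1 ± 0.666 FPKM, against 49.6 ± 0.218 FPKM with siNC. It averaged 16.7 ± 2.18 FPKM with almonertinib and 24.4 ± 3.17 FPKM in control cells. The labels give no time for either treatment.

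The siNC cells differed from the control cells in most of these genes. Of the 39 genes, 27 were higher with siNC, among loci of which 33.9% were higher, and 7 were lower, among loci of which 30.5% were lower. PSAT1 averaged 60.2 ± 1.43 FPKM with siNC, against 14.9 ± 1.83 FPKM in control cells (1.95 ± 0.08, limma, adjusted p = 4.34e-10). SLC7A5 averaged 99.9 ± 2.14 FPKM with siNC, against 29.02 ± 3.06 FPKM in control cells (1.75 ± 0.08, adjusted p = 7.64e-10). Higher with siNC were 12 synthetases, led by MARS1 at 1.13 ± 0.06 (adjusted p = 4.42e-09), and CARS1 was lower at -0.36 ± 0.06 (adjusted p = 7.46e-05). GDF15 was lower by -1.52 ± 0.08 (adjusted p = 2.79e-09) and NUPR1 by -1.01 ± 0.11 (adjusted p = 2.32e-06). Without control 3 the number lower was 4. The 8 epithelial markers summed to 1101 to 1145 FPKM with siNC, against 922 to 1124 FPKM in control libraries, with EPCAM among them at 35.2 FPKM with siNC, against 6.58 FPKM in control cells. Gene by gene, 6 of these 8 were higher and 1 was lower with siNC. Their median log2 change was 0.98, beside 0.03 over all tested loci. The 5 leukocyte markers summed to 7.45 to 8.06 FPKM with siNC, against 30.7 to 40.6 FPKM in control cells, nearly all of it CD14. Transfection and any other difference between these cultures cannot be told apart.

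Further genes of the same pathways were counted from lists, beside shares over all loci of 5.37% that rose and 8.71% that fell with almonertinib, 19.3% and 23.2% with EGF, and 12.5% and 11.1% with siEGFR. Of 10 other cytosolic synthetases and scaffold proteins of their complex, 0 rose and 2 fell with almonertinib (limma, and 0 were higher at an unadjusted p under 0.05 or with limma-voom), 6 rose and 1 fell with EGF, and 1 rose with siEGFR. FARSB, a chain of the phenylalanine enzyme, averaged 3.45 ± 0.549 FPKM with almonertinib and 9.81 ± 0.514 FPKM with EGF, against 5.53 ± 0.519 FPKM in control cells. It fell by 0.56 with almonertinib (limma, adjusted p = 0.00181) and rose by 0.73 with EGF (adjusted p = 1.16e-05). The scaffold protein AIMP2 averaged 15.8 ± 0.753 FPKM with almonertinib and 33.97 ± 2.79 FPKM with EGF, against 20.2 ± 0.781 FPKM in control cells. QARS1, the glutamine enzyme, named here after its values were seen, was the 1 that fell with EGF, at 64.0 ± 5.73 FPKM, against 79.9 ± 10.7 FPKM in control cells (-0.31, adjusted p = 0.0224). Of 16 tested mitochondrial synthetases 0 rose and 3 fell with almonertinib (limma, and likewise 0 higher unadjusted or with limma-voom), 5 rose and 1 fell with EGF, and 4 rose with siEGFR. Their median with EGF was 0.15, beside 0.66 for the 13 cytosolic synthetases of the set.

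Among 14 regulators of eIF2, 1 rose and 3 fell with almonertinib, 4 rose and 1 fell with EGF, and 3 rose and 2 fell with siEGFR. PPP1R15A (GADD34), the ATF4-induced phosphatase subunit that reverses eIF2 phosphorylation, rose with the drug and fell with the ligand, as DDIT3 did. It averaged 26.7 ± 2.15 FPKM with almonertinib and 15.2 ± 0.303 FPKM with EGF, against 19.4 ± 0.314 FPKM in control cells, a rise of 0.44 (limma, adjusted p = 0.0029) and a fall of 0.33 (adjusted p = 0.00197). EIF2S1, the subunit of eIF2 that is phosphorylated, averaged 10.4 ± 2.65 FPKM with almonertinib and 27.3 ± 2.83 FPKM with EGF, against 15.7 ± 2.81 FPKM in control cells. Of 16 other partners and targets of ATF4, 1 rose and 1 fell with almonertinib, 5 rose and 2 fell with EGF, and 5 rose and 3 fell with siEGFR. EIF4EBP1, a translation repressor controlled by mTORC1, averaged 25.4 ± 2.14 FPKM with almonertinib and 64.1 ± 6.22 FPKM with EGF, against 27.8 ± 2.35 FPKM in control cells (EGF 1.18, adjusted p = 3.12e-07). CEBPG, a dimer partner of ATF4, averaged 3.40 ± 0.567 FPKM with almonertinib and 6.08 ± 0.183 FPKM with EGF, against 3.23 ± 0.353 FPKM in control cells (EGF 0.75, adjusted p = 2.05e-05).

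Of 12 other amino acid transporters tested, 1 rose and 4 fell with almonertinib, 3 rose and 4 fell with EGF, and 1 rose and 2 fell with siEGFR. SLC7A8 (LAT2), another light chain that pairs with SLC3A2, averaged 4.38 ± 0.157 FPKM with almonertinib and 0.899 ± 0.0788 FPKM with EGF, against 2.01 ± 0.147 FPKM in control cells. It rose by 0.84 with almonertinib (limma, adjusted p = 0.000133) and fell by 0.66 with EGF (adjusted p = 2.86e-05), whereas SLC7A5 rose with both. SLC7A1, a carrier of arginine and lysine, averaged 3.31 ± 0.306 FPKM with almonertinib and 7.42 ± 0.458 FPKM with EGF, against 5.11 ± 0.241 FPKM in control cells. Of 17 other enzymes of serine, folate, proline and glutamine metabolism, 0 rose and 4 fell with almonertinib (limma, and likewise 0 higher unadjusted or with limma-voom), 6 rose and 3 fell with EGF, and 4 rose and 2 fell with siEGFR.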

How the data were processed

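RNA from NCI-H1975 cells was extracted with TRIzol and enriched with oligo(dT) beads for paired-end libraries, per the labels' protocols. The authors deposited 1 table of FPKM for 61248 loci in 15 libraries. HISAT2, featureCounts, DESeq2 and the build hg19 are named, without roles, per the submitters' processing notes. FPKM carry depth and gene length but no correction for composition, so a few abundant genes can shift the rest. Symbols matched 60463 loci. The steps of the unrounded FPKM gave whole reads within 0.01 for 99.999% of positive values.

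Loci with at least 1 FPKM in at least 3 libraries were fitted as log2(FPKM + 1) with limma 3.58.1 in R 4.3.3. The added 1 shrinks changes of low genes. The fit had 1 coefficient and 1 variance weight per group, an intensity trend, robust moderation and 10 residual degrees of freedom. Weights were used because groups differed in spread, as was known from earlier results. The step was tested on simulated data. There, the fit recovered 45.4% of 1.5-fold changes for almonertinib against control and 75.6% for siEGFR against siNC. For 2-fold changes it recovered 83.5% and 87.0%. Of the calls, 7 of 127 and 6 of 154 were false. Adjusted p under 0.05 was the threshold.

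The members, lists and tests were chosen with earlier results of these data known. Members are named with values, beside up to 3 genes per other list with the smallest p; QARS1 was added later. Alternatives were another pseudocount, filter, threshold or scaling (TPM or median ratios), no trend or weights, fewer libraries, limma-voom on recovered reads and the replicate number as a block. Python 3.11.15 made the tables and figures. No replicate pair was identical.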

Additional observations from a re-analysis of the deposited data

How the results depend on the processing

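No member reversed its direction in a call. Of the member values recomputed, 5985 kept their side of the threshold, 117 passed newly and 192 no longer passed. A threshold of 0.01 left members lower at 4 for almonertinib, 2 for siEGFR and 3 for the drug minus the knockdown. It left all loci higher and lower at 307 and 510 for almonertinib, 940 and 985 for siEGFR, and 334 and 459 for drug minus knockdown. Without weights almonertinib had 10 members higher, with 1817 loci higher and 2700 lower, and siEGFR had 2 members higher and 2 lower, with 340 loci higher and 479 lower. Fitting the compared groups alone left almonertinib 4 members lower, with 402 loci higher and 461 lower. Median-ratio scaling left 5 members lower with almonertinib. TPM gave 520 loci higher with almonertinib, and 8 members and 1891 loci lower for drug minus knockdown. Without control 1 and almonertinib 3 that difference had 8 members and 1892 loci lower. With no filter siEGFR had 2 members higher and 2 lower, with 771 loci higher and 1019 lower, and drug minus knockdown had 3 members lower. A minimum of 5 FPKM, which tests fewer loci, left 1868 loci lower with EGF, 3362 higher and 2573 lower with siNC, and 2277 lower for EGF against almonertinib. Otherwise the cause was not tested.

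Leaving out 1 library gave 5 to 9 members higher and 4 to 12 lower with almonertinib (loci 262 to 1375 and 376 to 2408). EGF gave 19 to 26 members higher and 3 lower (loci 1817 to 3673 and 2015 to 3741). For siEGFR 5 to 7 were higher and 2 to 7 lower (loci 1245 to 1906 and 1191 to 1695). For siNC 25 to 27 were higher and 4 to 7 lower (loci 3781 to 5930 and 3350 to 4904). EGF against almonertinib gave 21 to 25 higher and 7 to 8 lower (loci 3497 to 5305 and 3118 to 4354). Drug minus knockdown gave 5 to 6 higher and 3 to 9 lower (loci 307 to 1259 and 399 to 2320).

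The main fit did not pair libraries by replicate number, and 3 libraries per group cannot settle whether the numbers pair them. Correlations of same-numbered deviations were -0.16, 0.54 and -0.17 for almonertinib and control, 0.55, 0.60 and -0.12 for EGF and control, 0.03, -0.01 and 0.01 for siEGFR and siNC, and -0.08, 0.22 and -0.14 for siNC and control. In these pairs of groups 2, 4, 3 and 2 of 6 libraries correlated best with their own number, and in each at least 1 correlation was not over 0.1. With the replicate number as a block almonertinib had 8 members higher and 8 lower, with 1232 loci higher and 2062 lower. With that block EGF had 28 members higher, and siEGFR had 4 higher and 3 lower, with 1139 loci higher.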
